A study of Mus musculus with 8 samples.

Results

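Promoters of long noncoding RNA genes were examined in the open chromatin of alveolar macrophages (AMs), the resident macrophages of the lung airspaces. A region counted as a noncoding promoter when the summit of its strongest peak lay within 1 kb of the transcription start site (TSS) of a long noncoding gene in GENCODE M21 (types lincRNA, antisense, processed_transcript, sense_intronic and bidirectional_promoter_lncRNA) and over 2 kb from every protein-coding TSS. Of 70896 autosomal regions where 2 or more libraries had a peak, 1350 met this rule, at 1148 noncoding genes. The rule used annotation and peak position only, and no difference between the genotypes entered it. A further 1527 regions lay within 1 kb of a noncoding TSS but also within 2 kb of a coding TSS and were not members.

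The assay was ATAC-seq, where the Tn5 transposase inserts sequencing adapters into open DNA, applied to AMs sorted from the bronchoalveolar lavage of adult mice. The 4 KO libraries came from CD11cCre+ Rxrab fl/fl animals, in which Cre deletes Rxra and Rxrb, which encode retinoid X receptors (RXRs), in cells that express CD11c, among them dendritic cells as well as AMs. The 4 WT libraries came from CD11cCre- Rxrab fl/fl control animals that carry the same floxed alleles without Cre. Replicates were named 1_2, 1_3, 2 and 3 in KO and 1_2, 1_3, 3 and 4 in WT, and the sources used here do not say if libraries 1_2 and 1_3 came from 1 animal.

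Long noncoding RNA genes are transcribed by RNA polymerase II and often spliced and polyadenylated, but their transcripts encode no known protein. Some act in the nucleus as scaffolds or guides for chromatin proteins, some serve as host transcripts for microRNAs or small nucleolar RNAs, and for some the act of transcription or a DNA element at the start site matters rather than the RNA. An accessible start site is needed for transcription but does not show it. RXRs are nuclear receptors that pair with partners such as PPARγ and LXR and bind repeats of the AGGTCA half-site.

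The lists held 60363 to 72484 peaks. No read totals accompany them, so depth was worked back from the peak statistics as 1.12 to 2.26 background tags per 200 bp, and the smallest summits called rested on 6 to 9 tags. Absence of a peak therefore means only that this level was not reached. At Rxra, a region (chromosome 2, 27744546 to 27744950) had a peak in all 4 WT libraries (36.8, 34.3, 34.8 and 47.3 scaled tags) and in no KO library. Whether this missing peak marks the deleted DNA was not tested, and 0.831% of all autosomal consensus regions had peaks in WT only. Of 12 AM marker genes, 11 had a TSS peak in all 8 libraries (Chil3 had none), as had all 5 pan-leukocyte genes, whereas none of 4 T cell and 3 B cell genes had one. Among markers of other cells, Epcam, Scgb1a1, Pecam1, S100a8, Cxcr2 and Ly6c2 had a TSS peak in all 8 libraries in both genotypes. Sftpc, Sftpb, Cdh5, Ly6g and Mmp9 had none in any library, and Ccr2 had one in 1 KO and 1 WT library. The part of other cells in the results was not tested.

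Sequences are shown for 10 noncoding promoters that the results turn on, each as 201 bases of GRCm38.p6 centred on the summit, read 5′ to 3′ on the strand of the noncoding gene. Capitals mark matches, on either strand, to the patterns named here. Those of lineage and signal-dependent factors were PU.1 (GAGGAAGT), the wider ETS family (CCGGAAGT), CEBP (TTNCGNAA), AP-1, the dimer of FOS and JUN proteins (TGANTCA), and RUNX, a family of blood cell factors (TGTGGTT). Those of general promoter factors were the E-box of basic helix-loop-helix proteins (CACGTG), the GC box of the SP family (GGGCGG), the CCAAT box bound by NFY (CCAATNA), the TATA box of the core promoter (TATAAA) and the NRF1 pattern, beside the CTCF pattern. Also marked were DR1 and DR4, direct repeats of the half-site AGGTCA spaced by 1 and 4 bases, with at most 2 mismatches. A match is a description of the letters and not evidence of binding. The first set holds the 2 members with the lowest values in KO, Gm15991 at chr8:67956943-67957143 (plus strand) and Gm35019 at chr15:37898921-37899121 (minus).
Gm15991: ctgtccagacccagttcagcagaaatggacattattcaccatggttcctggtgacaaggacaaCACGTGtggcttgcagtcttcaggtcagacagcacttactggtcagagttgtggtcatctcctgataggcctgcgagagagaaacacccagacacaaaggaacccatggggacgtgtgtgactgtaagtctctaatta
Gm35019: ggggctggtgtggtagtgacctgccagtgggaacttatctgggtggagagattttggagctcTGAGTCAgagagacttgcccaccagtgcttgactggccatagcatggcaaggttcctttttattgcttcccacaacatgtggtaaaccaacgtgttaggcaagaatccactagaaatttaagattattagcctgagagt
In this set Gm15991 held an E-box and Gm35019 an AP-1 match.

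The second set holds 4 of the 5 members with the highest values in KO, Gm43351 at chr3:130873843-130874043 (plus), Gm47216 at chr13:93992471-93992671 (minus), 9530059O14Rik at chr9:122572336-122572536 (plus) and Gm3513 at chr3:79552160-79552360 (minus).
Gm43351: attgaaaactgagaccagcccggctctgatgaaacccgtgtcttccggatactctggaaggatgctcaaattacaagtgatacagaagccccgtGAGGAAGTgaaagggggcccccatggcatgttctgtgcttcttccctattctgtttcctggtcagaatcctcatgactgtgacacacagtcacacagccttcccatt
Gm47216: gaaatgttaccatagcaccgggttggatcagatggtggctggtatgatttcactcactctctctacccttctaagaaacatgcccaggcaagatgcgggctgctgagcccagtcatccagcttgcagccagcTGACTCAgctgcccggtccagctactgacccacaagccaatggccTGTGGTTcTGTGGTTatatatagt
9530059O14Rik: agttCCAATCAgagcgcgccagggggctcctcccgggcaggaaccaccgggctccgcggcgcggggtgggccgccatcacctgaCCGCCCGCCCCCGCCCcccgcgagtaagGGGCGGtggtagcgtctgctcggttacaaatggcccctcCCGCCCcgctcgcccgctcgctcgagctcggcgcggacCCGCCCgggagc
Gm3513: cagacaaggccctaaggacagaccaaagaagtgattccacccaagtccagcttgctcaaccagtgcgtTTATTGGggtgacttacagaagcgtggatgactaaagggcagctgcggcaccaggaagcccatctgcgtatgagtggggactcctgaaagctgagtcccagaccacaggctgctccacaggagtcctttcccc
A PU.1 match lay across the summit of Gm43351, and Gm47216 held an AP-1 match and a pair of RUNX matches. The window of 9530059O14Rik was the only CpG-rich one of the 4, with 76.6% G and C, 28 CpG and 6 SP matches.

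The third set holds a promoter with peaks in WT only, 4930551O13Rik at chr2:5036534-5036734 (plus), the 2 strongest promoters of all members, 4932412D23Rik at chr16:42875443-42875643 (minus) and Gm32250 at chr1:194995277-194995477 (minus), and the host gene of microRNA 142, Mir142hg, at chr11:87755403-87755603 (plus).
4930551O13Rik: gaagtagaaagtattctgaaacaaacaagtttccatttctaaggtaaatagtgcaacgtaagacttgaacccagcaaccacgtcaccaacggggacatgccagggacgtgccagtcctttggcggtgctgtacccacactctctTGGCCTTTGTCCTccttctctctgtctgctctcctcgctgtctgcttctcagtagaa
4932412D23Rik: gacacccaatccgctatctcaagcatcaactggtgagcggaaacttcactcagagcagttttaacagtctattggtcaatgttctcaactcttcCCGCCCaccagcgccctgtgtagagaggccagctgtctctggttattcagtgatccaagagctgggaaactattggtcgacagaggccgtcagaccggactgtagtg
Gm32250: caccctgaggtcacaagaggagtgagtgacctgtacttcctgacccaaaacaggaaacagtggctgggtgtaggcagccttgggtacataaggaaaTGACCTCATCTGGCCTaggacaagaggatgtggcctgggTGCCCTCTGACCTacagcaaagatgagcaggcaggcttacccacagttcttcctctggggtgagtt
Mir142hg: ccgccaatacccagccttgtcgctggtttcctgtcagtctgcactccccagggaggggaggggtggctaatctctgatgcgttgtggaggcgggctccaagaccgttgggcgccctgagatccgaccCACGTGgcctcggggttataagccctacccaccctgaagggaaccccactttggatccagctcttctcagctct
Gm32250 held the closest DR1 of any named member, with 1 mismatch, and a DR4 with 1 mismatch 3.5 bases from the summit. The 4930551O13Rik window held a DR1 with 2 mismatches, 4932412D23Rik an SP match, and Mir142hg an E-box.

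By gene type, 814 of the 1350 members (60.3%) belonged to lincRNA genes, 350 (25.9%) to antisense genes, 146 (10.8%) to processed transcripts, 38 to sense intronic genes and 2 to bidirectional promoter genes. Most genes had 1 member region (967 of 1148), and 181 had 2 or more, up to 4. The summit lay within 100 bp of the start in 409 members (30.3%) and within 500 bp in 904, and it lay upstream of the start in 819 (60.7%). The nearest coding TSS was at a median of 30.1 kb, 119 members lay within 5 kb of one, and 376 summits fell inside a protein-coding gene body (308 of them on the opposite strand). Just inside the rule, the summit near Gm16541 lay 1000 bp from its start (mean strength percentile 17.8) and that near A830082K12Rik 2002 bp from a coding TSS (27.8). Just outside it, the summit near 0610012D04Rik lay 1001 bp from the noncoding start (93.5) and that near 4930579G18Rik 1974 bp from a coding TSS (42.2).

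Noncoding promoters stood between coding promoters and distal regions in how often and how strongly they were open. A peak was present in all 8 libraries at 924 members (68.4%), against 83.4% of 14263 protein-coding promoters and 60.7% of 55168 regions over 1 kb from every TSS. Strength was read as the percentile of a peak by -log10 p within its own list, averaged over the libraries with a peak, and the median member stood at 44.3, against 71.9 for coding promoters and 35.1 for distal regions. Members with peaks in all 8 libraries had a median percentile of 62.3, and the 426 with peaks in 2 to 7 libraries one of 14.6. These shares and medians were set side by side without a test, because neighbouring regions are not independent replicates.

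**Figure D1:**
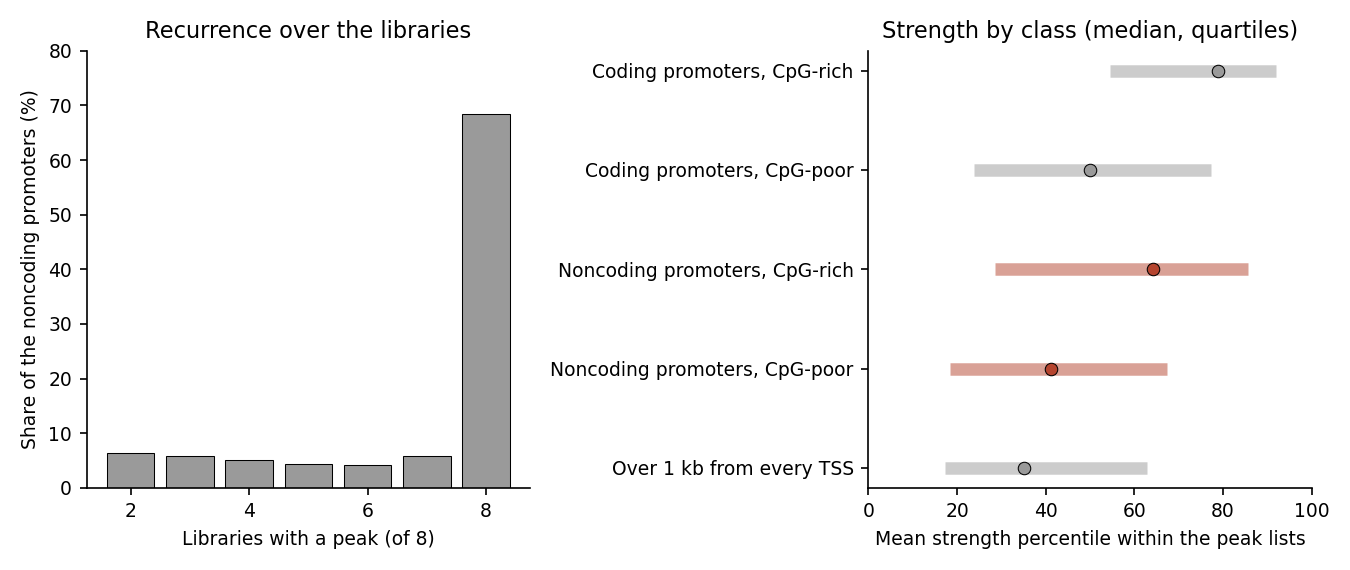
Left, bars give the share of the 1350 noncoding promoters (%) by the number of libraries with a peak, and 68.4% had one in all 8. Right, points give the median and bars the quartiles of the mean strength percentile by class, with CpG-rich noncoding promoters (64.3) and CpG-poor ones (41.2) each below coding promoters of the same class (78.8 and 50.1) and above regions over 1 kb from every TSS (35.1).

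Only 241 members (17.9%) were CpG-rich, meaning at least 50% G and C and an observed over expected CpG of at least 0.6 in 300 bp around the summit, whereas 68.2% of coding promoters and 3.20% of distal regions were. CpG-rich members were stronger, with a median percentile of 64.3 against 41.2 for the 1109 CpG-poor members, and 80.1% against 65.9% of them had a peak in all 8 libraries. Both classes stayed below coding promoters of their own class, at 78.8 and 50.1. CpG-rich summits also lay nearer the annotated start (45.2% within 100 bp) than CpG-poor ones (27.1%). An SP match, the binding pattern of a ubiquitous promoter factor family, was found in 60.6% of CpG-rich members, and in 10.4% of CpG-poor ones.

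Motif matches of the 1109 CpG-poor members were set beside those of 4531 CpG-poor coding promoters and 53400 CpG-poor distal regions, with no test. PU.1, the macrophage lineage factor, was matched in 10.6% of CpG-poor members, 8.32% of CpG-poor coding promoters and 12.7% of CpG-poor distal regions. AP-1 was matched in 15.2%, 8.92% and 14%, RUNX in 7.94%, 6.66% and 10.8%, SP in 10.4%, 24.8% and 6.36%, and TATA in 5.14%, 5.16% and 7.2%. The share in CpG-poor members was above both other classes for AP-1, between them for PU.1, RUNX and SP, and about that of coding promoters for TATA. Over both CpG classes, a CTCF match was found in 6.44% of all members, 6.62% of distal regions and 2.83% of coding promoters. DR1 with at most 2 mismatches was found in 4.07% of members, 4.76% of distal regions, 1.89% of coding promoters and 4.17% of all autosomal regions. The summit lay in a repeat that the reference soft-masks in 10.1% of members, 12.2% of distal regions and 5.65% of coding promoters.

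The strongest noncoding promoters gave overlapping values in the genotypes. 4932412D23Rik, a lincRNA gene 32.1 kb from Zbtb20, a transcriptional repressor, led at percentile 99.96 (chromosome 16, 42874923 to 42876149). Its scaled summit tags (tags at the summit divided so that all libraries share 1 median) were 798, 755, 844 and 833 in KO replicates 1_2, 1_3, 2 and 3 and 773, 706, 749 and 813 in WT replicates 1_2, 1_3, 3 and 4. The genotypes overlapped, with a log2 difference, KO minus WT, of 0.088 ± 0.069 (SE, adjusted p = 0.442). Gm32250, 56.5 kb from Cd34, gave 482, 446, 459.9 and 511 tags in KO and 479, 444, 444 and 419 in WT, in the same order of replicates. Those values overlapped too, at 0.088 ± 0.073 (SE, adjusted p = 0.476). This promoter holds the DR1 and DR4 shown above.

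The other 8 of the 10 strongest were 5430416N02Rik near Sec31a, 1700096K18Rik, Gm29358 within Pnkd and Tmbim1, Gm5444, 6720427I07Rik, Gm40787 near Rassf3, 1810026B05Rik near Chd2, which encodes a chromatin remodeller, and Gm37982 within Uck2. Their log2 differences lay between -0.10 (Gm29358) and 0.16 (1810026B05Rik), and none passed the test. Gm29358 passed as lower with quantile normalisation (-0.17, adjusted p = 0.0169) and cyclic loess (-0.20, 0.00484) and had 0.093 in the deposited fold enrichment. Without WT replicate 4, 1810026B05Rik passed at 0.21 (adjusted p = 0.0331). By scaled tags alone, Gm26917 and AY036118, 2 adjoining loci on chromosome 17 that were named after their values had been seen, stood higher, with 1364 to 2472 and 1281 to 2299 tags over the 8 libraries. WT replicate 4 was the highest library at both, and their log2 differences of 0.11 and 0.096 did not pass the test (adjusted p = 0.503 and 0.550).

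The number of noncoding promoters with a peak did not separate the genotypes. It was 1117, 1168, 1110 and 1138 in KO replicates 1_2, 1_3, 2 and 3 and 1168, 1264, 1185 and 1105 in WT replicates 1_2, 1_3, 3 and 4. The groups overlapped, with means of 1133 ± 26.0 in KO and 1180 ± 65.4 in WT (n = 4 per genotype, ± SD), and the two-sided exact permutation test gave p = 0.286. WT replicate 1_3, the deepest library, had the most. Member peaks had a median strength percentile of 52.9 ± 0.721 in KO and 53.2 ± 0.793 in WT (± SD, n = 4 per genotype), where the two-sided exact permutation test gave p = 0.686.

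As a share of all autosomal consensus regions with a peak, noncoding promoters made up 1.97, 1.94, 1.93 and 1.93% in KO and 1.93, 1.92, 1.92 and 1.93% in WT, in the same order. Every KO value lay above every WT value, though the lowest KO library (1.931%) and the highest WT library (1.928%) nearly met. The difference of 0.0204 percentage points had p = 0.0286 (exact permutation test, two-sided), the smallest that 4 against 4 libraries allow. It rested largely on KO replicate 1_2, without which it was 0.00862 points (exact permutation p = 0.171). Without any 1 of the 4 WT libraries the exact permutation p also missed 0.05, at 0.0571 (WT 1_2), 0.143 (WT 1_3), 0.143 (WT 3) and 0.0857 (WT 4).

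**Figure D2:**
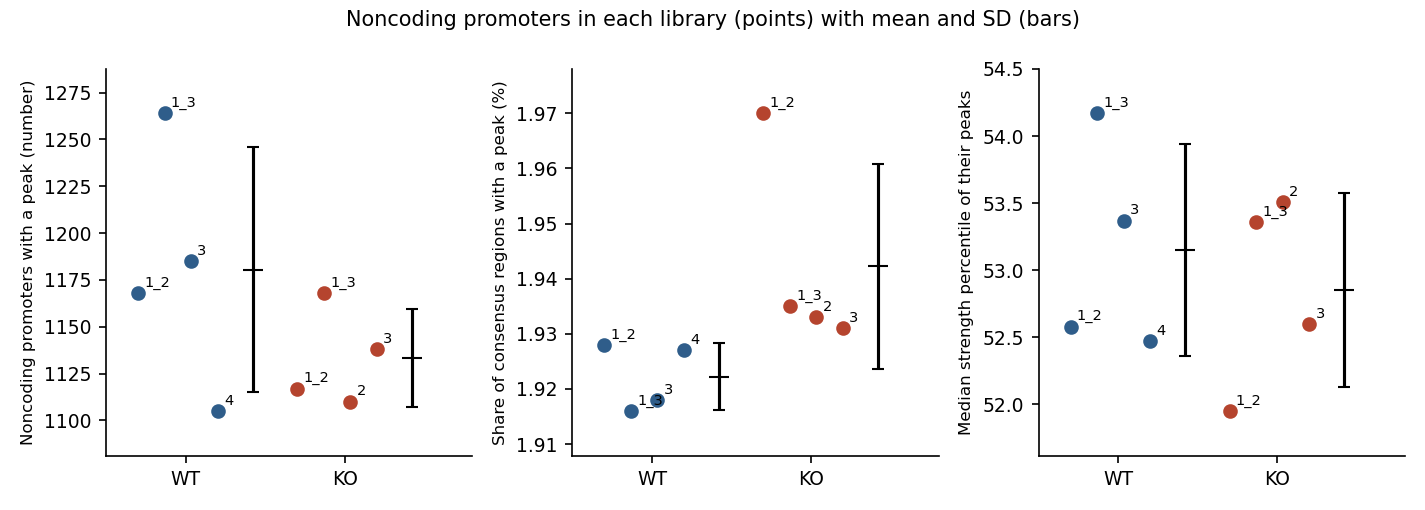
Points are libraries, labelled by replicate, and black bars give the mean and SD of each genotype (n = 4). The number of noncoding promoters with a peak (left, 1105 to 1264) and the median strength percentile of their peaks (right, 52.0 to 54.2) overlapped between WT and KO, whereas their share of consensus regions with a peak (middle, %) did not overlap and was led by KO replicate 1_2 at 1.97%. The vertical axes do not start at 0.

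Differences at single promoters were tested with limma on log2(tags + 0.5) over the 47499 regions that had a peak in every library, 924 of them noncoding promoters, with p-values adjusted over all regions fitted and called below 0.05. In these bulk libraries, a site open in fewer cells and one with fewer cuts per cell cannot be told apart. Of the 924 members, 113 (12.2%) were called, against 12.8% of all regions fitted. Lower values in KO were called at 53 members (5.74%) against 7.03% of all regions, and higher values at 60 (6.49%) against 5.81%, so that the members' shares were near the background in both directions. Their median log2 difference of 0.044 also stood beside 0.043 over all regions. Called members changed at least 2-fold numbered 3 lower and 5 higher, and the share of all regions at this cut was not counted. The values of the 2 genotypes did not overlap at 133 members (14.4%), against 16.2% of all regions.

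The balance of higher and lower calls depended on the scaling. With tags scaled to total depth instead of the median, 28 members were called lower and 9 higher (75.7% lower, against 46.9%), where 4.19% and 1.21% of all regions were called in those directions. In a fit on promoter regions alone, 73 were called lower (7.90%) and 13 higher (1.41%), or 84.9% lower, where 3.61% and 1.40% of all 13261 promoters fitted were called in those directions, and this difference was not tested. With the deposited fold enrichment, which divides the summit tags by a background, in place of the tags, 13 were called lower and 17 higher, where 2.19% and 1.36% of all regions were. Leaving out KO replicate 3 took the higher calls from 60 to 35 (3.79%), with 43 lower (4.65%), where 3.84% and 5.99% of all regions were called higher and lower.

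**Figure D3:**
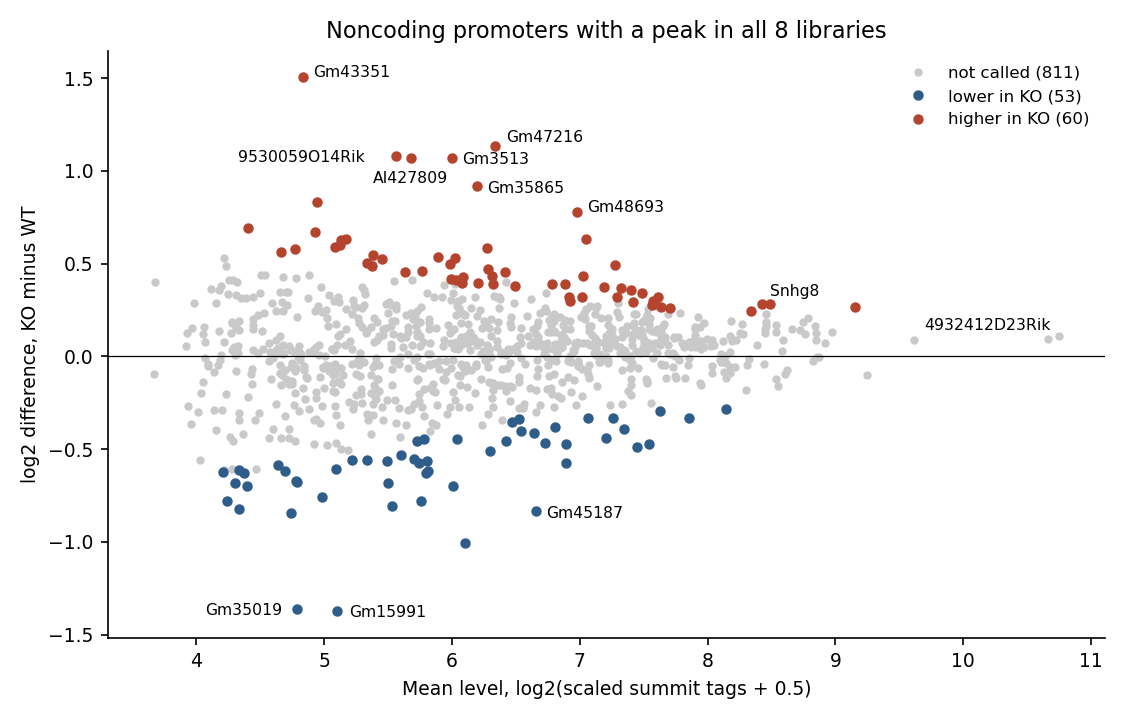
Each point is 1 of the 924 noncoding promoters with a peak in all 8 libraries, with its mean level over libraries as log2(scaled summit tags + 0.5) on the horizontal axis and its log2 difference, KO minus WT, on the vertical axis. The 53 promoters called lower (blue) and 60 called higher (red) by limma spread over levels, from Gm15991 (-1.37) to Gm43351 (1.5), and the strongest promoters, such as 4932412D23Rik, lay near 0.

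By gene type, the calls split unequally between the directions. Antisense promoters were called lower at 21 and higher at 7 of 241 fitted (8.71% and 2.90%, against 7.03% and 5.81% of all regions). Most antisense summits (261 of 350) lay inside a protein-coding gene body. Members of any type inside one were called lower at 8.24% and higher at 3.14%. Regions over 1 kb from every TSS were called lower at 9.09% and higher at 5.03% inside a gene body, and at 8.48% and 5.61% outside. The lower share of antisense promoters was near both of these, and their higher share was below both. Lower calls also outnumbered higher ones with total depth scaling (14 and 0), quantile normalisation (24 and 5), cyclic loess (25 and 5) and in the fit on promoters alone (28 and 0), and were nearly even in the deposited fold enrichment (5 and 4). Calls over all regions leaned lower in these fits too. They were 1991 lower and 575 higher (total depth scaling), 3621 and 2363 (quantile normalisation) and 3800 and 2237 (cyclic loess). The fit on promoters alone called 479 and 185 of all promoters, and the fold enrichment 1042 and 645 of all regions. With 1 library left out, the lower calls of antisense promoters numbered 15 to 20. Their higher calls numbered 2 (without KO 3), 3 (without KO 2, WT 1_2, WT 1_3 or WT 3), 4 (without KO 1_2), 6 (without KO 1_3) or 8 (without WT 4). LincRNA promoters were called higher at 44 and lower at 26 of 549 (8.01% and 4.74%). This balance turned to 12 lower and 7 higher with total depth scaling, where all regions leaned lower as well. It turned to 38 lower and 11 higher in the fit on promoters alone, where all promoters leaned lower as well. The higher calls of lincRNA promoters numbered 28 without KO 3, where 3.84% of all regions were called higher. Their lower calls numbered 17 without KO 1_2, where 6.07% of all regions were called lower. Processed transcripts gave 6 lower and 7 higher of 109, with the higher calls at 3 without WT 3, 4 without KO 1_2, KO 2, KO 3 or WT 1_3, and 15 without WT 4. Sense intronic genes gave 0 lower and 2 higher of 24, and 1 higher without KO 1_2, KO 3 or WT 4. Over all regions, the share called also fell with 1 library left out, from 12.8% to between 9.60% and 11.1%, except without WT 4 (13.6%). These counts are descriptions over regions, and the difference between types was not tested.

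Among the 10 members with the lowest values in KO, Gm15991 and Gm35019 fell the furthest. Gm15991, an antisense gene inside Psd3, which encodes a guanine nucleotide exchange factor for ARF6 (chromosome 8, 67956570 to 67957241), had 19.9, 28.3, 21.4 and 15.4 scaled tags in KO and 56.1, 52.9, 64.1 and 47.3 in WT. Every KO value lay below every WT value, at -1.37 ± 0.18 (SE, adjusted p = 2.87e-07) by limma, and in the deposited fold enrichment the difference was -0.64 (adjusted p = 0.0279). Gm35019, a lincRNA gene 61.9 kb from Rrm2b, a subunit of ribonucleotide reductase (chromosome 15, 37898696 to 37899214), had 16.9, 22.2, 12.4 and 16.6 tags in KO and 54.2, 45.5, 45.8 and 32.7 in WT. The groups did not overlap there either, at -1.36 ± 0.20 (SE, adjusted p = 1.62e-06), and 47.0% of the 300 bp around this summit was soft-masked repeat. The promoters of Psd3 and Rrm2b had -0.070 and 0.090 and were not called (adjusted p = 0.842 and 0.513).

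Gm45187, antisense within Uvrag, a gene of autophagy and endosome traffic, was the strongest promoter of the 10 (percentile 73.0, chromosome 7, 98903877 to 98904527). It gave 88.6, 81.8, 67.6 and 64.0 tags in KO and 128, 133, 140.0 and 136 in WT. The groups stood well apart, at -0.84 ± 0.11 (SE, adjusted p = 4.57e-07), but in the deposited fold enrichment the difference was -0.30 and was not called (adjusted p = 0.123). Gm14041, antisense 27.6 kb from Sirpa, the receptor for CD47 that restrains phagocytosis, gave 24.9, 25.3, 18.03 and 28.5 tags in KO and 34.8, 37.3, 37.5 and 56.4 in WT. The highest KO library stayed below the lowest WT library, at -0.76 ± 0.19 (SE, adjusted p = 0.00447), although WT replicate 4 alone stood far above the other WT libraries. The Gm14041 call was lost in the deposited fold enrichment (-0.57, adjusted p = 0.0660). The Sirpa promoter had 0.023 and was not called (adjusted p = 0.911).

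Another 4 regions of this group were 1810008I18Rik (-0.85, 59.0 kb from the proprotein convertase gene Pcsk6), Gm16235 (-0.82, near Sycp3), Gm21814 (-0.81, 157 kb from Bicd1) and Gm3942 (-0.78, near Atxn7l3b). None of them overlapped between the genotypes. In the deposited fold enrichment Gm21814 had -0.45. Gm16235 lost its call without WT replicate 1_3 (-0.67, adjusted p = 0.0524). At Gm21814, the promoter of the nearest coding gene, Bicd1, a dynein adaptor, was called lower as well, at -0.59 ± 0.13 (SE, adjusted p = 0.00161).

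**Figure D4:**
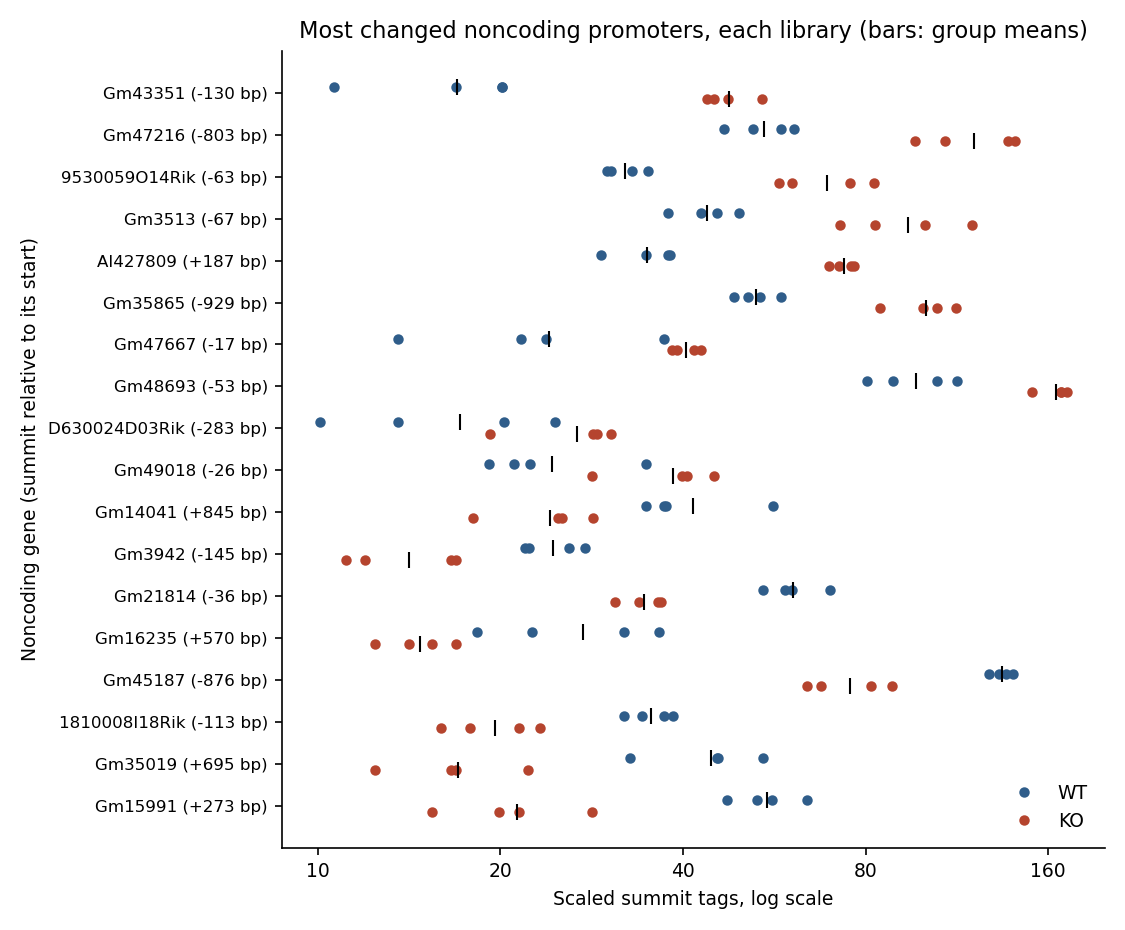
Points give the scaled summit tags (log scale) of each library at the 10 called noncoding promoters with the highest log2 difference (top) and 8 of the 10 with the lowest (bottom), WT in blue and KO in red, with black bars at group means and the position of the summit relative to the noncoding start in brackets. WT and KO points were apart at all but D630024D03Rik and Gm49018.

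The 10 members with the highest values in KO were led by Gm43351, a lincRNA gene 144 kb from Rpl34, a ribosomal protein gene (chromosome 3, 130873731 to 130874184). Its tags were 43.8, 47.5, 54.1 and 45.1 in KO and 10.6, 20.1, 20.1 and 16.9 in WT. Every KO library lay above every WT library, at 1.5 ± 0.20 (SE, adjusted p = 1.72e-07). Gm47216, 65.2 kb from Lhfpl2 (chromosome 13, 93992389 to 93992762), had 96.6, 108, 138 and 141 tags in KO and 58.0, 52.2, 46.7 and 60.9 in WT. All KO values were higher, at 1.13 ± 0.13 (SE, adjusted p = 1.0e-08). The promoters of Rpl34 and Lhfpl2 had 0.064 and 0.21 and were not called (adjusted p = 0.646 and 0.1235).

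9530059O14Rik, the CpG-rich promoter with 6 SP matches (chromosome 9, 122572166 to 122572745), gave 82.6, 57.6, 75.5 and 60.5 tags in KO and 29.99, 35.0, 33.0 and 30.4 in WT. The groups did not overlap, at 1.08 ± 0.16 (SE, adjusted p = 1.75e-06). Gm3513, sense intronic within Fnip2, whose product binds folliculin at the lysosome (chromosome 3, 79551832 to 79552522), gave 72.7, 82.8, 100.3 and 119.8 tags in KO and 37.7, 45.5, 49.4 and 42.8 in WT. The difference was 1.07 ± 0.15 (SE, adjusted p = 4.31e-07), with no overlap, whereas the Fnip2 promoter itself had 0.085 ± 0.079 (SE, adjusted p = 0.527). In the deposited fold enrichment the differences were 0.70 at 9530059O14Rik and 0.43 at Gm3513, both still called (adjusted p = 0.0116 and 0.0353).

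AI427809 is a lincRNA gene 110.2 kb from Abca1, the transporter that exports cholesterol from macrophages. It gave 69.7, 75.8, 76.7 and 72.3 tags in KO and 37.7, 38.0, 34.8 and 29.3 in WT. KO libraries spanned a narrow range well above WT, at 1.07 ± 0.15 (SE, adjusted p = 6.79e-07), with 0.40 in the deposited fold enrichment (adjusted p = 0.0385). The Abca1 promoter was called higher as well, at 0.51 ± 0.093 (SE, adjusted p = 9.23e-05).

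Of the remaining 5, Gm35865 gave 0.92 and Gm48693, a CpG-rich promoter, 0.78, both without overlap between the genotypes, and 0.30 and 0.19 in the deposited fold enrichment, where both stayed called (adjusted p = 0.0302 and 0.0312). Gm47667 gave 0.83, with WT replicate 4 (37.2 tags) close to the lowest KO library (38.4). D630024D03Rik (0.69, 47.4 kb from Cpeb4) and Gm49018 (0.67) overlapped. D630024D03Rik lost its call without KO 1_2, KO 2, KO 3, WT 1_2 or WT 3 (adjusted p = 0.0850 to 0.20), and Gm49018 without KO 3 or WT 3 (0.0723 and 0.0541). In the deposited fold enrichment D630024D03Rik had 0.22 and Gm49018 0.46, and neither was called there, with total depth scaling or in the fit on promoters alone (adjusted p = 0.0683 to 0.581). The coding gene nearest Gm48693, Asap2, lay 497 kb away and was called lower at its own promoter, at -0.42 ± 0.12 (SE, adjusted p = 0.0102).

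Peaks in all libraries of 1 genotype and none of the other were rare. They numbered 8 WT-only members (0.593%), against 0.831% of all autosomal consensus regions, and 4 KO-only members (0.296%), against 0.258%. With 1 library left out, so that fewer peaks are needed, the 12 became 19 (without KO 1_2), 19 (without KO 2) and 20 (without WT 4), the WT-only members became 13 (without KO 2) and 16 (without WT 4), and the KO-only members became 7 (without KO 1_2 or KO 3). All 12 were CpG-poor and weak, with mean percentiles of 9.96 to 35.1. The strongest was 4930551O13Rik, antisense within Optn, which encodes an autophagy receptor (chromosome 2, 5036412 to 5036782), with 28.1, 32.8, 20.1 and 24.8 tags in WT. Gm4668, 13.8 kb from Tgfbr2, a subunit of the TGF-beta receptor, had 24.2, 17.9, 11.0 and 16.9. The Tgfbr2 promoter had 0.019 ± 0.093 (SE, adjusted p = 0.925) in the fit over all regions.

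The other 6 WT-only members were 4933406J10Rik within Efl1, Gm5493, 4930546K05Rik 55.4 kb from the cholesterol synthesis gene Sc5d, Gm26797 near Ano10, Ctcflos at Ctcfl, a testis paralogue of CTCF, and 4930527B05Rik within Asic2, with 8.94 to 23.9 tags in WT libraries. The KO-only members were Gm37662, 5830416I19Rik, Gm30409 and Platr6, with 14.1 to 27.9 tags in KO libraries. Platr6, 36.7 kb from the kinase gene Sgk1, had 27.9, 24.2, 25.9 and 23.7. The Sgk1 promoter was called higher, at 0.36 ± 0.083 (SE, adjusted p = 0.00161). So was the Ano10 promoter, near the WT-only member Gm26797, at 0.29 ± 0.091 (SE, adjusted p = 0.0276). An absent peak need not be an absent signal, since summits under 6 to 9 tags were not listed.

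Well-known noncoding genes were taken from lists of nuclear and structural RNAs, small RNA hosts, immune RNAs and Hox cluster RNAs. Of 100 listed genes, 72 were annotated as noncoding, 31 had a member region (41 regions in all), and 34 of those regions were fitted. Of the 34, 1 was called lower (2.94%) and 5 higher (14.7%), against 7.03% and 5.81% of all regions, with a median log2 difference of 0.098 against 0.043 over all regions. The 5 higher calls were small, at 0.26 to 0.39, and none of them was called with total depth scaling or in the fit on promoters alone, while the 1 lower call stayed. In the deposited fold enrichment 2 listed promoters were called higher, the Epb41l4aos region over its start and Snhg6, which was not among the 5. Cyclic loess kept 2 of the 5 higher calls, and quantile normalisation kept 3. The higher calls numbered 1 without KO 2, KO 3 or WT 1_3 and 2 without WT 3, where 3.84 to 4.45% of all regions were called higher.

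On the list of small RNA hosts, 17 regions were fitted, and 3 were called higher (17.6%, against 5.81% of all regions) and none lower (against 7.03%). The list held Mirt1, which is not known as a small RNA host, and without its 4 regions, a count added after the values had been seen, 3 of 13 were called higher. Mir142hg, host of a microRNA of blood cells, gave 177, 203, 227 and 228 tags in KO and 178, 148, 184 and 179 in WT (chromosome 11, 87755261 to 87755784). KO replicate 1_2 lay among the WT values, and WT replicate 1_3 stood below all others, at 0.27 ± 0.094 (SE, adjusted p = 0.0440). This call was lost without KO 1_3, KO 2, KO 3, WT 1_2 or WT 1_3 (adjusted p = 0.0604 to 0.172). Snhg8, which hosts a small nucleolar RNA, gave 370.3, 366, 397 and 379.5 tags in KO and 344, 316, 286 and 299.8 in WT. No WT value reached KO, at 0.28 ± 0.077 (SE, adjusted p = 0.00986), but without WT 3 the adjusted p was 0.0696. Snhg17 gave 96.6, 80.8, 94.7 and 92.5 and 83.2, 51.4, 73.2 and 73.3, which overlapped, at 0.39 ± 0.13 (SE, adjusted p = 0.0390), and the call was lost without KO 1_2, KO 2, KO 3, WT 1_3 or WT 3 (0.0540 to 0.230). In the deposited fold enrichment none of the 3 was called. There Mir142hg had 0.34 (adjusted p = 0.1075), Snhg8 0.13 (0.291) and Snhg17 0.26 (0.235). Of 20 alternatives in all, 13 lost the call at Mir142hg, 4 at Snhg8 and 9 at Snhg17.

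The other promoters of this list did not pass the test. The promoter of Snhg15 had 0.26 (adjusted p = 0.0697, and 0.0422 without WT 1_2), Snhg6 0.18 (called in the deposited fold enrichment, adjusted p = 0.0452), Snhg20 0.23, Snhg12 0.15, Snhg5 0.12 and Snhg3 -0.15. Mir17hg, host of the miR-17-92 cluster, had 0.11. The 2 regions of Mir22hg had 0.12 and -0.072, and the 4 of Mirt1 lay between -0.16 and 0.16. Mir155hg, host of the inflammation-induced microRNA 155, was weakly open in every library at 13.5 to 23.1 tags (percentile 18.03), with -0.20 ± 0.21 (SE, adjusted p = 0.596). Mir670hg and Mir9-3hg had peaks in 2 and 3 WT libraries and in no KO library. These peaks were weak, at 10.1 to 11.2 and 11.9 to 17.4 scaled tags (mean percentiles 5.28 and 5.43).

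Among immune RNAs, Ptgs2os2, the lincRNA-Cox2 gene 65.0 kb from Ptgs2, was strongly open (percentile 98.7), with 405, 385, 381 and 415 tags in KO and 401, 359, 372 and 359.6 in WT. Its values overlapped, at 0.088 ± 0.074 (SE, adjusted p = 0.480). The 2 regions of Dnmt3aos, inside the DNA methyltransferase gene Dnmt3a, had -0.11 and -0.037 and were not called. AW112010, an interferon-induced gene, had a peak in 3 KO and 2 WT libraries. Of the 10 immune regions fitted, Mir142hg, which stands on 2 of the lists, was the 1 called.

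Among nuclear and structural RNAs, Kcnq1ot1, the antisense transcript that silences an imprinted cluster, was called higher. It gave 253, 200, 242 and 218 tags in KO and 189.6, 181, 180.3 and 209.7 in WT (chromosome 7, 143296353 to 143296881). The genotypes overlapped through WT replicate 4 and KO replicate 1_3, at 0.26 ± 0.089 (SE, adjusted p = 0.0435), and the call was lost without KO 1_2, KO 2, KO 3, WT 1_2, WT 1_3 or WT 3 (0.0622 to 0.179). In the deposited fold enrichment Kcnq1ot1 had 0.13 and was not called (adjusted p = 0.250), and 13 of 20 alternatives in all lost its call. Neat1, the scaffold of paraspeckles, gave 190.1, 186, 236 and 196 and 159.6, 156, 171 and 216, which overlapped at 0.20 ± 0.098 (SE, adjusted p = 0.170), and without WT 4 it passed (0.31, adjusted p = 0.0203). Trp53cor1, the p53-induced lincRNA-p21, had 0.29 (adjusted p = 0.0760, and 0.0183 without WT 4 or 0.0395 without KO 1_2).

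Malat1, an abundant nuclear RNA, had 1 region 915 bp upstream of the start with peaks in all libraries (0.067, adjusted p = 0.761) and another near the start with peaks in 2 libraries of each genotype. Pvt1, beside Myc, had -0.043, Dleu2 0.14, Lockd near Cdkn1b 0.052, Dubr 0.074 and Lncpint 0.31 (adjusted p = 0.0880), none of them called. The 2 regions of the imprinted gene Peg13 had 0.011 and -0.34. From the Hox list, Hoxd3os1 alone had a member region, weak at 10.9 to 22.2 tags.

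**Figure D5:**
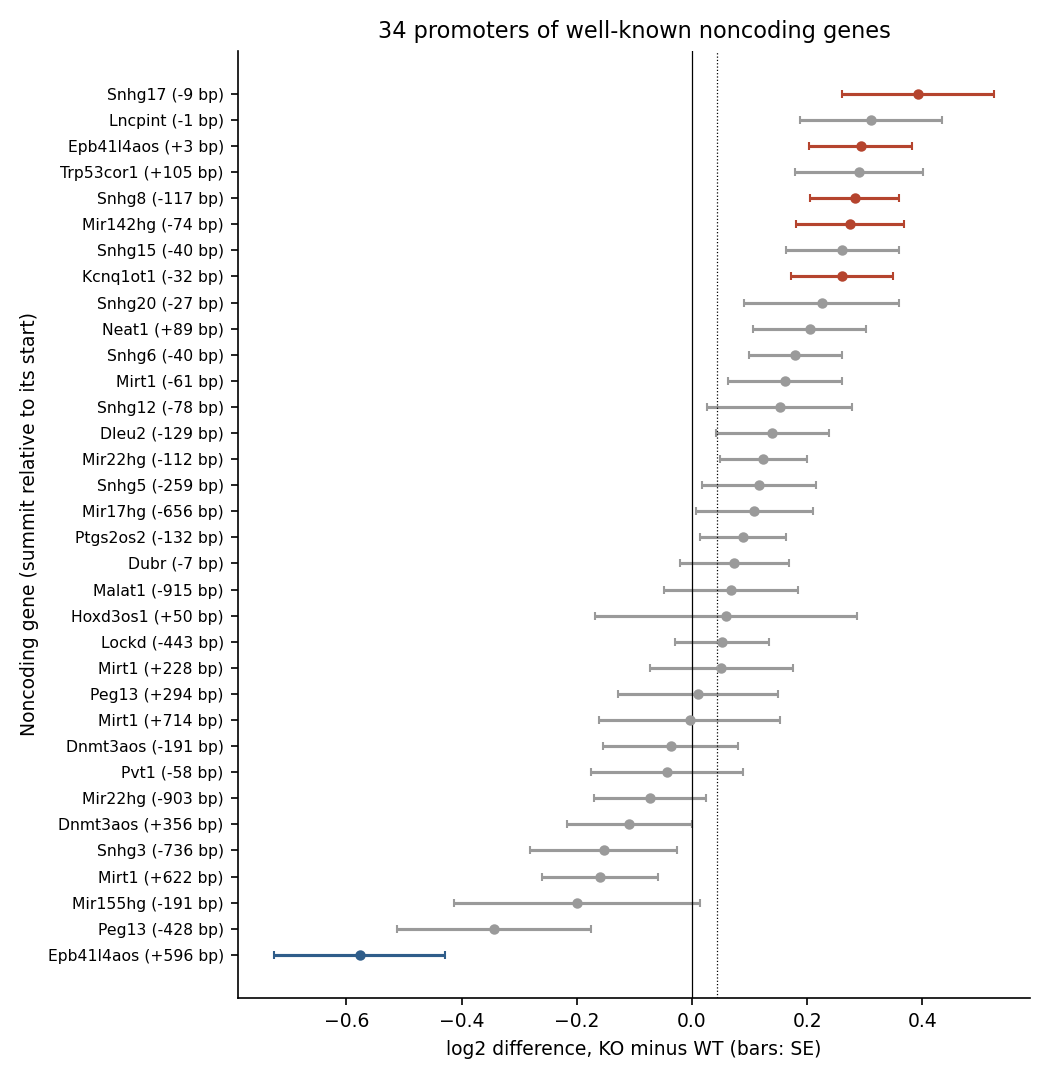
Points give the log2 difference, KO minus WT, and bars its SE for the 34 fitted promoters of listed noncoding genes, with the summit position relative to the start in brackets. The 5 promoters called higher are red, the 1 called lower blue and those not called grey, and the dotted line marks the median over all regions (0.043).

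Several genes carried more than 1 member region, and these did not always move together. Of 83 genes with 2 or more fitted regions, 14 had exactly 1 called, 2, among them Gm45096, had 2 called in the same direction, and 1, Epb41l4aos, had 2 called in opposite directions. At Epb41l4aos, the CpG-rich region over the start had 184, 179.8, 202 and 191 tags in KO and 165, 148, 157 and 146 in WT. KO was higher in every library, at 0.29 ± 0.090 (SE, adjusted p = 0.0226), but not past the threshold without KO 2, KO 3 or WT 1_3 (0.0507 to 0.0816). The CpG-poor region 596 bp downstream had 34.8, 48.5, 45.1 and 46.2 and 64.8, 59.6, 65.9 and 69.9. There KO was lower in every library, at -0.58 ± 0.15 (SE, adjusted p = 0.00581).

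Gm45096, 10.3 kb from Cebpg, which encodes a C/EBP factor, was higher at both regions. The one nearer the start had 184, 187, 134 and 158 tags in KO and 118, 111, 108 and 89.0 in WT, with a difference of 0.63 ± 0.11 (SE, adjusted p = 3.35e-05) and no overlap. The other had 0.46 ± 0.16 (SE, adjusted p = 0.0479), with overlap. The Cebpg promoter had a log2 difference of 0.060, so the neighbouring coding promoter was not among the calls.

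The E-box (CACGTG) is a site of helix-loop-helix factors such as MITF, TFEB and USF. It was found in 10 of 53 lower members (18.9%), 7 of 60 higher members (11.7%) and 53 of 811 members not called (6.53%), beside 4.34%, 6.40% and 5.88% of those classes over all autosomal regions. This pattern was picked out after the counts had been seen. The 10 lower members were Gm15991, 1810008I18Rik, Gm15407, Gm47552 near Egln3, Gm17276 near Notch3, 4930520O04Rik, the downstream Epb41l4aos region, Gm11998, Gm4117 within Vcan and Gm12348 near Jup, with log2 differences from -1.37 to -0.39. DR1 with at most 2 mismatches was found in 2 lower members (3.77%), no higher member and 31 not called (3.82%), beside 10.1%, 2.20% and 3.75% over all autosomal regions. DR4 with at most 2 mismatches was found in 4 lower members (7.55%), no higher member and 22 not called (2.71%), beside 3.97%, 1.63% and 2.43%. No called member held a DR1 with at most 1 mismatch, which 1.58% of all lower regions held.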

How the data were processed

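ATAC-seq peak lists of 8 libraries (4 KO, 4 WT, named by their titles) were analysed. According to the study's methods and the submitters' processing notes, the authors trimmed adapters (cutadapt), mapped reads to mm10 (Bowtie2), took out duplicates (Picard), filtered with SAMtools and ran MACS3 on each library at a q-value of 0.05, extending reads to 200 bp. Of the deposited values, the fold enrichment is the authors' ratio of summit tags to background, each plus 1, the −log10 p-value and −log10 q-value rank a peak within its list, the summit offset was deposited as a position, and the deposited score is a rounded display value and was not used. The authors tested accessibility on read counts, which the lists do not hold, so that test could not be fitted.

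Peaks sharing a base were merged over libraries, and TSSs were taken from the GENCODE M21 basic annotation. Summit tags were worked back from fold and −log10 p, and whole tags gave back 100% of peaks within a relative error of 1e-05. They are a summit pileup and not a count over the region, so log2(tags + 0.5), centred on each library's median, was fitted with limma 3.58.1 (R 4.3.3, trended prior variance) over the 47499 regions that had a peak in every library, and p-values were adjusted by Benjamini-Hochberg over all of them. Regions without all 8 peaks were not fitted and no value was imputed. Library values were tested by exact permutation of the 70 labelings. The fit was tested on simulated tags for the same regions. Sequence came from the RefSeq copy of GRCm38.p6, and motifs were searched within 100 bp of the summit. Nothing says which libraries share an animal, so p-values measure the spread between these libraries.

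Named members were every member of a listed noncoding gene, the 10 lowest and 10 highest called, up to 10 genotype-specific members per direction and the 10 strongest, and others are marked as named after their values were seen. 2 regions among the 10 lowest and the sequence of 1 member are not reported here. The members and lists were chosen with earlier results of these data known. Alternatives covered scaling, pseudocount, filters, distances, gene types, list length, pairing and each library left out, and the comprehensive annotation was added after the data had been seen.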

Additional observations from a re-analysis of the deposited data

Results flagged for a closer look

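In groups of 4 libraries, a single value was set against the rest by Dixon's ratio, which chance alone passes in about 1 of 20 groups. Of 146 groups tested, 6 passed. KO replicate 1_2 had the largest share of noncoding promoters among its consensus regions, 1.97% against 1.931 to 1.935% in the other KO libraries. At D630024D03Rik, KO replicate 1_3 had 19.2 scaled tags against 28.5 to 30.4 in the other KO libraries. At Mir142hg, WT replicate 1_3 had 147.6 against 178 to 184 in WT, and the higher call at this gene was lost without that library. At Snhg20, KO replicate 1_3 had 61.6 against 72.7 to 73.5. WT replicate 4 stood above the other WT libraries at Dleu2 (213, against 153.5 to 158) and at Gm14041 (56.4, against 34.8 to 37.5).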

How the results depend on the processing

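The share of noncoding promoters in a library's consensus regions (0.0204 percentage points higher in KO) kept its direction but missed the threshold with equal lists (0.0199), a −log10 q of at least 5 (0.0204), summits within 500 bp of the noncoding TSS (0.0173), members over 5 kb from coding TSSs (0.0182), lincRNA and antisense genes alone (0.0115), 1_2 and 1_3 counted as 1 sample (0.0169, exact permutation p = 0.10, the smallest that 3 against 3 allow, so that it could not pass) and the replicate block (0.0250, exact sign flips, p = 0.250, the smallest that 3 pairs give, with the same limit), and ranged from 0.00862 to 0.0281 with 1 library left out. The 12 genotype-specific members (8 WT-only, 4 KO-only) became 5 (5 and 0) within 500 bp and 21 (13 and 8) with 1_2 and 1_3 as 1 sample, and ranged from 14 to 20 (10 to 16 and 4 to 7) with 1 library left out, where fewer peaks are needed. The 113 members called by limma became 37 (28 lower, 9 higher) with total depth scaling, 30 (13 and 17) with the deposited fold enrichment, 86 (73 and 13) in the promoter fit, and 81 (34 and 47) within 500 bp, where fewer members remain, and ranged from 78 to 121 (39 to 51 and 35 to 70) with 1 library left out. The cause of the shifts with scaling was not tested. Over all regions, total depth scaling called 2566, the fold enrichment 1687 and the promoter fit 664 of 13261, against 6096.

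The replicate numbers shared by the genotypes (1_2, 1_3 and 3) gave same-number correlations of 0.0555, 0.116 and 0.0368, not all above 0.1, although each library correlated best with its own number. Whether libraries of the same number were paired cannot be told from these values. A replicate block on these numbers gave 134 called members (57 lower, 77 higher), 82 of them among the 113. The block called 14.50% of members (6.17% lower, 8.33% higher) and 14.49% of all regions (6.91% and 7.58%). Among named members it took Gm14041 (-0.47), Gm49018 (0.54), Mir142hg (0.25) and the Epb41l4aos region over the start (0.24) out of the calls, and brought in 1810026B05Rik, 6720427I07Rik, Gm5444, Mir22hg, Snhg15 and Trp53cor1.

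Of the 26 named members that were called, 15 were called under every alternative run, and none changed direction. In 1277 refits of named members, 65 lost a call and 14 gained one. Depth limits what can be seen: summits under 6 to 9 tags were not listed, and the lists hold no read totals.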
